A study of Homo sapiens with 4 samples.

Results

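The lipid droplet proteins followed here are 10 genes of the droplet's coat, its triglyceride and sterol ester synthesis and its lipolysis, named PLIN2, PLIN3, PNPLA2, ABHD5, LIPE, DGAT1, DGAT2, HILPDA, FITM2 and SOAT1. All probe sets whose platform annotation gives exactly 1 of these symbols were taken, which gave 22 of the 54675 probe sets on the array, and each of the 10 genes had at least 1. The family was picked by the measured values of PLIN2, whose main probe set lay well below control in these arrays (3.07% of the 28202 probe sets past the signal filter were lower still), and its other genes by their role at the droplet, so the comparison of shSOX11 with shControl is given for the family as a description. The cells were Z138, an established human B-lymphoid line from mantle cell lymphoma, a tumour that usually makes the transcription factor SOX11. All cells carried a stable lentiviral short hairpin RNA, and the design text speaks of stable transduced clones. The 2 shSOX11 samples held a hairpin against SOX11 (shSOX11.1 and shSOX11.3), and the 2 shControl samples held a scrambled hairpin (shControl.1 and shControl.2). Total RNA of each was hybridised to 1 Affymetrix U133 Plus 2.0 array, and the values are the authors' MAS5 signal intensities on a linear scale, 1 per probe set. Nothing in the labels says that the samples were separate cultures of 1 construct, so errors and p-values measure only how far these 4 samples spread, and that spread may be technical.

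A lipid droplet is a core of triglycerides and sterol esters inside a phospholipid monolayer that carries coat proteins. The perilipins coat the droplet and limit access of lipases to it, and PLIN2 is the perilipin of most cells outside fat tissue. Triglyceride is made by the acyltransferases DGAT1 and DGAT2, sterol esters by SOAT1, and FITM2 acts where the droplet buds from the endoplasmic reticulum. Lipolysis starts with the lipase PNPLA2, which ABHD5 activates and HILPDA inhibits, and LIPE takes it further.

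The hairpins and the identity of the cells were checked first. All 3 SOX11 probe sets were lower in the cells with hairpins against it, by 2.20-fold to 2.78-fold. Of 10 B-cell markers 9 had a probe set and 8 passed the signal filter, with MS4A1, the CD20 antigen, at 6823 and 7426 on shSOX11 arrays and 8358 and 7778 on shControl arrays. Of the 9 B-cell markers 5 had both shSOX11 arrays below both shControl arrays and 0 above, where 24.9% of all 11938 genes read at their brightest kept probe set were below and 16.2% above. Besides MS4A1 these were the B-cell factors PAX5 (646 and 1450 on shSOX11 arrays against 1845 and 1666 on shControl arrays) and EBF1 (1578 and 1535 against 2282 and 2459), the receptor chain CD79B (535 and 658 against 916 and 992) and CD22 (39.8 and 4.94 against 48.2 and 67.0). These 5 B-cell markers were thus lower on the same arrays as PLIN2, and their part in its difference was not tested. Groups overlapped at the other B-cell markers, with log2 differences of -0.30 for CD79A, 0.18 for BLK, 0.02 for CD37 and 0.21 for FCER2. Of the mantle cell lymphoma markers, CCND1 was at 9753 and 8610 on shSOX11 arrays against 9760 and 10317 on shControl arrays. CD5 was dim, at 4.68 and 4.27 against 6.25 and 7.87. Adipocyte and macrophage markers, included because those cells are rich in droplets, were mostly dim, with 7 of 9 and 5 of 8 under the signal threshold of 24.8 on all 4 arrays, among them ADIPOQ, LEP, PLIN1 and PLIN4 and CD14, CD163, LYZ and MARCO. The summed signal of the adipocyte markers was 89.3 and 87.5 on shSOX11 arrays and 110 and 120 on shControl arrays. Among them CIDEC passed the filter, at 46.8 and 29.0 against 23.6 and 46.0. The summed signal of the macrophage markers was 277 and 234 against 204 and 221, most of it from the scavenger receptor MSR1 (186 and 166 against 134 and 141). CSF1R (25.7 and 28.9 against 15.1 and 8.98) and ITGAM (44.7 and 20.8 against 26.9 and 30.0) also passed. Both shSOX11 arrays lay above both shControl arrays for 2 of the 8 macrophage markers (16.2% of all genes) and below for 2 (24.9%). The lower 2, CD14 and LYZ, were under the threshold on all 4 arrays. For the 9 adipocyte markers these counts were 0 above and 1 below. Markers of T and NK cells summed to 236 and 254 against 286 and 290, most of it from CD3G (129 and 203 against 160 and 207), and 2 of 7 were under the threshold on all 4 arrays. Hepatocyte markers summed to 54.4 and 45.4 against 89.3 and 88.9, with 1 of 4 under the threshold on all 4 arrays. The 3′ to 5′ signal ratio of the beta-actin controls, which follows RNA length and labelling, was 7.29 and 5.31 on shSOX11 arrays and 11.6 and 11.6 on shControl arrays. That of the GAPDH controls was 1.01 and 1.03 on shSOX11 arrays and 0.98 and 1.06 on shControl arrays, so it did not separate the groups. The part of these ratios in the results was not tested.

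The probe sets that stood lowest relative to control belonged to PLIN2, PNPLA2 and PLIN3, and the reference promoters of these 3 genes are shown because they are the genes whose values the account turns on. Promoter sequence from RefSeq (build GRCh38.p14) was matched by symbol for 7 of the 10 genes, in 10 windows, and not for DGAT1, DGAT2 and HILPDA. Each line gives the 250 bases before the annotated start, 5′ to 3′ on the strand of the gene, at chr9:19127493-19127742 on the minus strand for PLIN2, chr19:4867668-4867917 on the minus strand for PLIN3 and chr11:818664-818913 on the plus strand for PNPLA2. Capitals mark matches to the motifs searched.
PLIN2: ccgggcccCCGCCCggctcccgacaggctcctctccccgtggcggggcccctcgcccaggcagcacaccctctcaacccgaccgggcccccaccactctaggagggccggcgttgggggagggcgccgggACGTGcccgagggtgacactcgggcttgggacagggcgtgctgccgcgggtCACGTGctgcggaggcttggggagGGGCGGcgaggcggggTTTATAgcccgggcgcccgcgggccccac
PLIN3: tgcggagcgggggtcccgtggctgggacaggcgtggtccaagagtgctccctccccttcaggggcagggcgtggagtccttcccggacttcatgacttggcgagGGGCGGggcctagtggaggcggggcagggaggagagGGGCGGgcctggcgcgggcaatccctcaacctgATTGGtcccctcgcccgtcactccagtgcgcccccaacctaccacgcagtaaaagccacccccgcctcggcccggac
PNPLA2: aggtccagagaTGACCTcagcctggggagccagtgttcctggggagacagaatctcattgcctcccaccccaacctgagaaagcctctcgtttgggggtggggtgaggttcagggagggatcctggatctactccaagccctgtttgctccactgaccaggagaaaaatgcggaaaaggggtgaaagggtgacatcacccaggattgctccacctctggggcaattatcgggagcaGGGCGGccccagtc
The motifs, searched on both strands, were the E-box CACGTG, the hypoxia-response core ACGTG, the nuclear receptor core AGGTCA, the SOX cores ACAAAG and also ACAATG, the GC box GGGCGG, the CCAAT box CCAAT and the TATA box TATAAA. The hypoxia-response core lies inside the E-box, so every E-box counts for both. The PLIN2 window held the E-box between 69 and 64 bases before the start and a further ACGTG between 120 and 116 bases before it. Of all 35116 windows of this length 6.35% held the E-box and 18.5% the hypoxia-response core, and of the 10 windows of the family only that of PLIN2 held either. The PNPLA2 window alone in the family held AGGTCA, in its reverse form TGACCT between 239 and 234 bases before the start, a motif found in 12.1% of all windows. PLIN3 held 2 GC boxes and a CCAAT box in reverse, and GC boxes were found in 8 of the 10 windows, against 42.6% of all windows. The ABHD5 windows among these overlap and share GC boxes, so the windows are not independent and nothing is read from the count. The SOX cores ACAAAG and ACAATG were in 0 of the 10 windows, against 13.7% and 9.29% of all windows. These matches describe letters in short windows and say nothing of binding.

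Of the 22 probe sets 17 passed the signal filter, which asked for a signal over 24.8 (the median of the whole table) on 2 or more of the 4 arrays, and these 17 covered 9 of the 10 genes. Of the 17, 16 were above the threshold on all 4 arrays, and the other was an ABHD5 probe set under it on shControl.1 alone. LIPE was the gene without a probe set past the filter. Signal on both shSOX11 arrays lay below that on both shControl arrays at 7 of the 17 probe sets, where 21.8% of all 28202 kept probe sets did so. The reverse order was seen at 1 of the 17, where the background was 18.9%. In limma 0 of the 17 passed an adjusted p of 0.05, and over all kept probe sets 0.00355% did, a single probe set of CD24. At an unadjusted limma p under 0.05 there were 5 of the 17 lower (3.76% of all) and 0 higher (4.5% of all). Since PLIN2 and its relatives were taken up with this comparison known, nothing is read from these counts. Over the 15 kept probe sets other than those of PLIN2 the limma adjusted p ranged from 0.528 to 0.980. With 2 arrays against 2, an exact permutation test cannot give a two-sided p under 0.333.

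**Figure D1:**
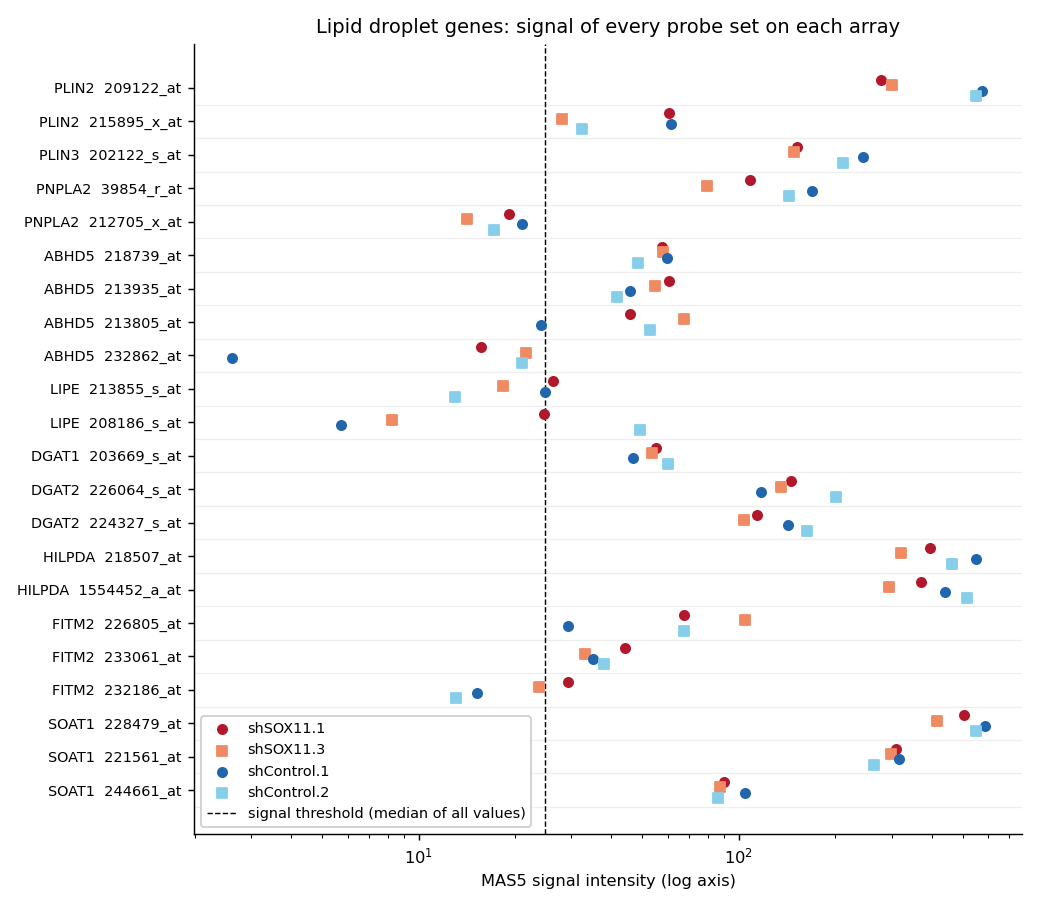
MAS5 signal intensity (log axis) of all 22 probe sets of the 10 genes, 1 point per array, with the signal threshold of 24.8 as a dashed line. The bright PLIN2 probe set shows the shSOX11 points at 278 and 300 well left of the shControl points at 576 and 552, while both LIPE probe sets straddle the threshold.

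PLIN2 and PLIN3, the coat proteins of the family, were lower on both shSOX11 arrays at their brightest probe sets. PLIN2 had a signal of 278 and 300 on shSOX11 arrays, against 576 and 552 on shControl arrays (probe set 209122_at). The groups stood far apart, since the highest of the 4 ratios of a shSOX11 to a shControl array was 0.544 and the lowest 0.483. In log2 units PLIN2 averaged 8.18 ± 0.08 in shSOX11 and 9.14 ± 0.04 in shControl cells (SD, n = 2 each), a difference of -0.96 with a limma standard error of 0.17, which puts shSOX11 cells at 51.3% of control. The second PLIN2 probe set, 215895_x_at, of the kind Affymetrix marks for possible cross-hybridization, did not share this. It was at 60.4 and 28.1 on shSOX11 arrays and 61.4 and 32.3 on shControl arrays, so each group had 1 high and 1 low array and the log2 difference was -0.11 (SE 0.49). The mean of both PLIN2 probe sets gave -0.54.

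PLIN3, a perilipin that moves from the cytosol onto young droplets, was measured by 1 probe set, at 151 and 148 on shSOX11 arrays against 244 and 211 on shControl arrays. The groups did not overlap, and both shSOX11 arrays had nearly the same signal. PLIN3 averaged 7.23 ± 0.02 in shSOX11 and 7.83 ± 0.15 in shControl cells in log2 units (SD, n = 2 each), a difference of -0.60 (SE 0.20), or 66.0% of control. In bulk RNA, fewer cells with a transcript and less of it per cell cannot be told apart, which holds for all genes given here.

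Among the lipolysis genes the lipase PNPLA2 was lower at its only kept probe set, its activator ABHD5 was not lower, and LIPE was too dim to compare. PNPLA2, which takes the first fatty acid off triglyceride, was at 109 and 79.5 on shSOX11 arrays against 169 and 143 on shControl arrays (39854_r_at). Both shSOX11 arrays were below both shControl arrays, with shSOX11.3 the lowest. The log2 difference was -0.74 (SE 0.25), or 59.8% of control, and it was wider on shSOX11.3 (-0.97 against the control mean) than on shSOX11.1 (-0.52). The other PNPLA2 probe set, 212705_x_at, was under the threshold on all 4 arrays and its groups overlapped. It was at 19.1 and 14.1 on shSOX11 arrays against 21.0 and 17.2 on shControl arrays.

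HILPDA, the small inhibitor of PNPLA2 that hypoxia induces, was lower on both shSOX11 arrays at both of its probe sets. At 218507_at its signal was 397 and 320 on shSOX11 arrays and 550 and 464 on shControl arrays. At 1554452_a_at it was 372 and 295 on shSOX11 arrays and 439 and 515 on shControl arrays. The groups did not overlap at either, and shSOX11.3 was the lowest array at both. The log2 differences were -0.50 (SE 0.19) and -0.52 (SE 0.20), which put HILPDA at 70.5% and 69.6% of control. The lipase, at its only kept probe set, and its inhibitor were thus both lower on shSOX11 arrays.

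ABHD5, the activator of PNPLA2, gave positive differences at its 3 kept probe sets. At the brightest, 218739_at, it was at 57.5 and 57.9 on shSOX11 arrays and 59.8 and 48.3 on shControl arrays, and the shSOX11 values lay between the shControl values. That log2 difference was 0.10 (95% interval -0.59 to 0.80). At 213935_at both shSOX11 arrays, at 60.3 and 54.9, were above both shControl arrays, at 45.9 and 41.6, with a log2 difference of 0.40 (SE 0.32). The third lay at 0.64 (SE 0.46) with overlapping groups, and the fourth ABHD5 probe set was under the threshold on all 4 arrays, at 15.6 and 21.7 on shSOX11 arrays against 2.61 and 21.1 on shControl arrays.

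LIPE, the hormone-sensitive lipase, was above the threshold on at most 1 array at either probe set. Its signals were 26.3 and 18.4 on shSOX11 arrays against 24.8 and 13.0 on shControl arrays at 213855_s_at. At 208186_s_at they were 24.6 and 8.26 on shSOX11 arrays against 5.72 and 49.2 on shControl arrays. No fold is given for LIPE because the arrays of both groups lay near or under the threshold and spread widely within a group.

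**Figure D2:**
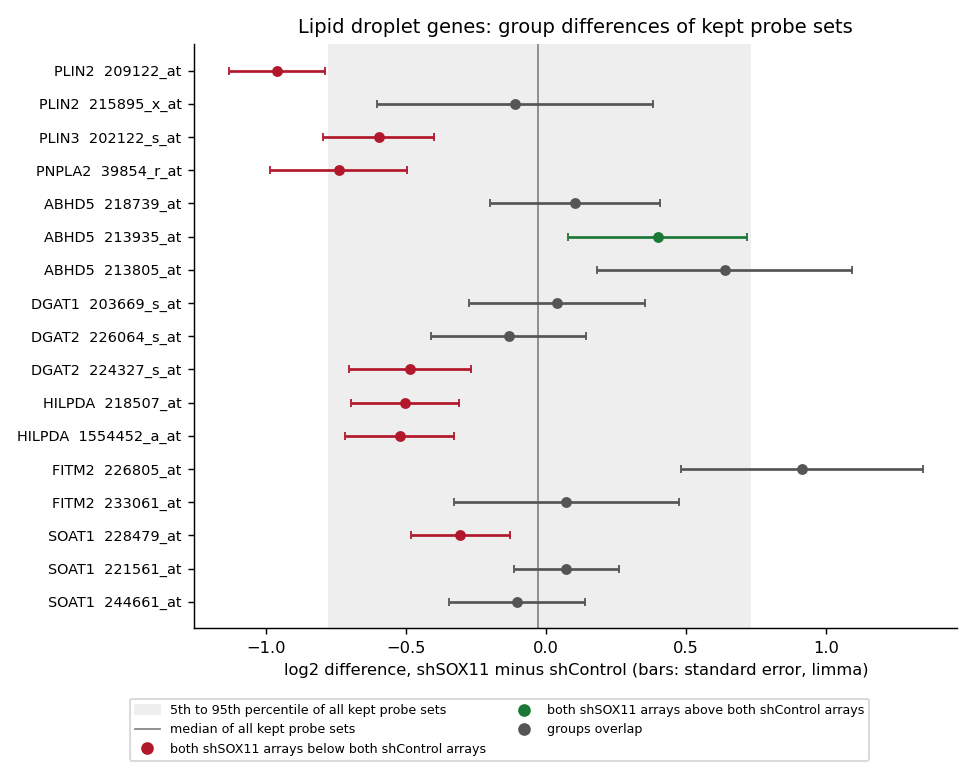
Log2 difference, shSOX11 minus shControl, of the 17 kept probe sets with limma standard errors as bars, coloured by whether the arrays of the groups overlap. The grey band runs from the 5th to the 95th percentile of all 28202 kept probe sets (-0.78 to 0.73), and only the bright PLIN2 probe set at -0.96 and FITM2 226805_at at 0.91 lie outside it.

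The enzymes that make the droplet's core showed smaller differences or probe sets that disagreed. DGAT2 had 2 kept probe sets. At 224327_s_at it was at 114 and 104 on shSOX11 arrays against 143 and 163 on shControl arrays, a log2 difference of -0.49 (SE 0.22) with groups apart. At 226064_s_at it was at 145 and 135 on shSOX11 arrays against 117 and 202 on shControl arrays. There the shSOX11 values fell between the shControl values, and the log2 difference was -0.13 (SE 0.28). DGAT1, the other enzyme for the last step of triglyceride synthesis, was at 55.0 and 53.6 on shSOX11 arrays against 46.7 and 59.9 on shControl arrays. The shSOX11 values again lay between the shControl values, and the log2 difference of DGAT1 was 0.04 (95% interval -0.68 to 0.75), so these arrays leave room for sizeable differences either way.

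SOAT1, which esterifies cholesterol for storage, had 3 kept probe sets with unlike patterns. At the brightest, 228479_at, it was at 505 and 417 on shSOX11 arrays against 587 and 549 on shControl arrays, with no overlap and a log2 difference of -0.31 (SE 0.18). At 221561_at the values were 309 and 299 on shSOX11 arrays and 317 and 264 on shControl arrays. At 244661_at they were 89.7 and 87.1 on shSOX11 arrays and 105 and 86.4 on shControl arrays. Groups overlapped at both of these, and the log2 differences were 0.07 (SE 0.19) and -0.11 (SE 0.24).

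FITM2, which helps droplets bud, had the highest positive difference among the 17 kept probe sets but an uneven control. At 226805_at it was at 67.2 and 104 on shSOX11 arrays against 29.2 and 67.6 on shControl arrays. The arrays shSOX11.1 and shControl.2 nearly coincided, so the groups overlapped at a log2 difference of 0.91 (SE 0.43), which became 0.31 without shControl.1 and 1.52 without shControl.2. A second FITM2 probe set, 233061_at, was at 44.3 and 33.1 on shSOX11 arrays against 35.0 and 37.9 on shControl arrays, a difference of 0.07 (SE 0.40). The third was dim and did not pass the filter, at 29.2 and 23.8 on shSOX11 arrays against 15.2 and 13.1 on shControl arrays. Only shSOX11.1 was above the threshold there, so no fold is given.

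Both shSOX11 arrays differed from the control mean in the same direction at the brightest kept probe set of all 9 measured genes, and they differed in size. They had opposite signs at PLIN2 215895_x_at (0.44 on shSOX11.1 and -0.66 on shSOX11.3) and at FITM2 233061_at (0.28 and -0.14). At the remaining kept probe sets the signs were the same. No share over all genes is given for this, so nothing is read from the agreement. Both hairpin samples are set against the same control mean, so these values are given side by side only. PLIN2 lay at -1.02 on shSOX11.1 and -0.91 on shSOX11.3, and PLIN3 at -0.58 and -0.61. HILPDA lay at -0.35 on shSOX11.1 and -0.66 on shSOX11.3, and SOAT1 at -0.17 and -0.44. The control arrays differed from each other (shControl.2 minus shControl.1) by -0.06 in log2 units for PLIN2 and by -0.21 for PLIN3, but by 0.78 for DGAT2 and 1.21 for FITM2. For PLIN2, PLIN3, PNPLA2, HILPDA and SOAT1 both shSOX11 arrays were farther from the control mean than the controls were from each other, and for ABHD5, DGAT1 and DGAT2 neither was. For FITM2 shSOX11.3 stood at 1.23 and shSOX11.1 at 0.60, against 1.21 between the controls.

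**Figure D3:**
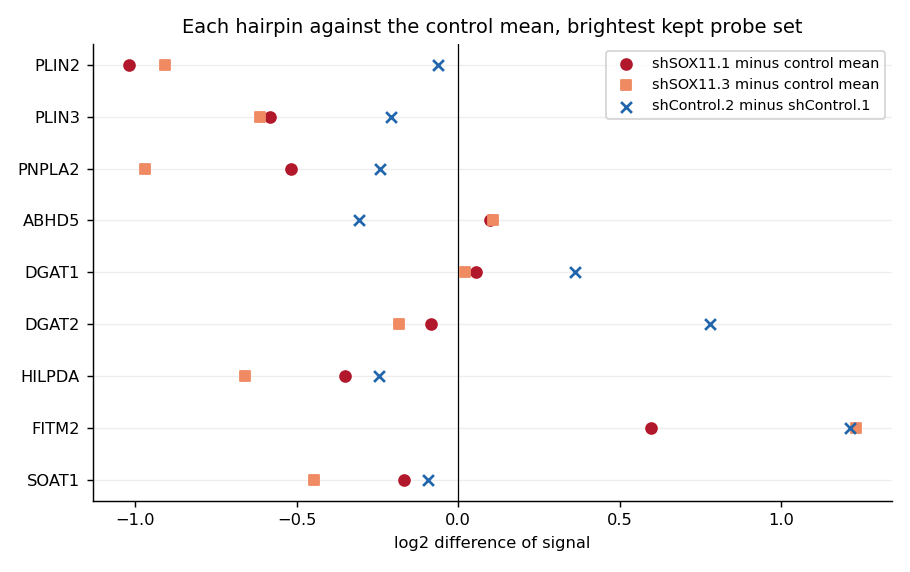
Log2 difference of each shSOX11 array from the mean of the shControl arrays, and of shControl.2 from shControl.1, at the brightest kept probe set of 9 genes. For PLIN2 the shSOX11 arrays lie at -1.02 and -0.91 and the controls differ by -0.06, whereas for DGAT2 the controls differ by 0.78 and the shSOX11 arrays lie at -0.08 and -0.18.

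Log2 signals over the 4 samples were then compared between PLIN2 and all other named genes, each probe set centred on its own mean log2 signal. The smallest root mean square differences from the bright PLIN2 probe set over the 4 arrays belonged to POU2F2 (0.025 log2 units), CCL5 (0.029), EBF1 (0.036), LRRC39 (0.036) and WIPF1 (0.039). EBF1, for example, was at 392 and 448 on shSOX11 arrays and 863 and 802 on shControl arrays at this probe set. Within the family the nearest to PLIN2 were PLIN3 (0.196) and PNPLA2 (0.236), and the farthest was FITM2 226805_at (1.06). With 4 arrays many of the 28202 probe sets can come this close, and the likeness is a description.

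The wider lipid genes were taken from lists of 119 genes outside the family, of which 81 had a kept probe set, each read at its brightest. In limma 0 of the 81 passed an adjusted p of 0.05, where 0% of all 11938 genes read this way did. At an unadjusted p under 0.05 there were 3 lower (4.66% of all genes) and 8 higher (3.06%). Both shSOX11 arrays lay below both shControl arrays for 15 of the 81 (24.9% of all genes) and above them for 18 (16.2%). The median log2 difference was 0.02 in the 81 and -0.06 over all genes.

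**Figure D4:**
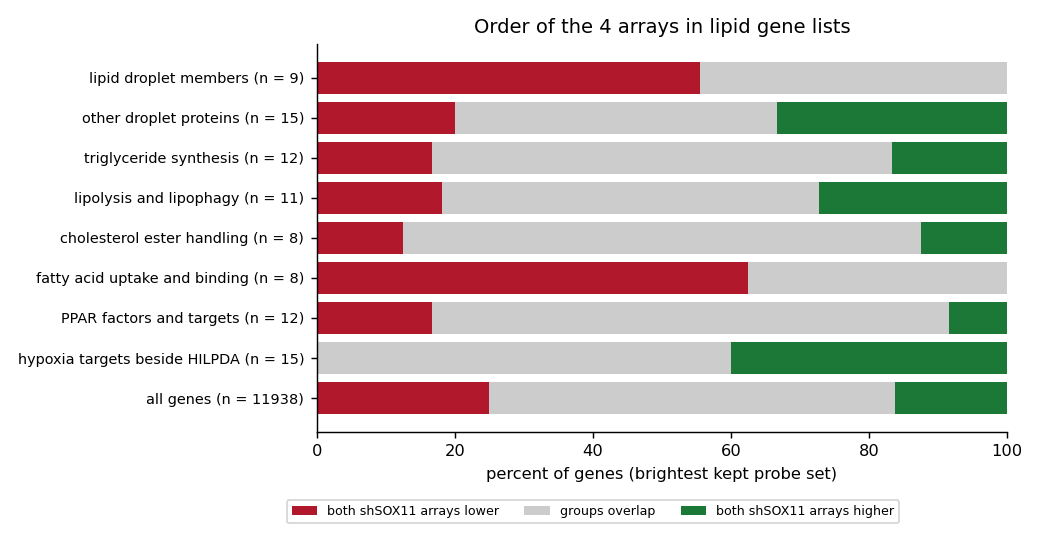
Percent of genes in each list whose 2 shSOX11 arrays were both below (red) or both above (green) the 2 shControl arrays at the brightest kept probe set, with the family at the top and all 11938 genes at the bottom. Over all genes 24.9% were below and 16.2% above. In the family, which was picked by the values of PLIN2, 5 of 9 genes were below and 0 above. In fatty acid uptake and binding 5 of 8 were below, and in the hypoxia targets 6 of 15 were above.

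Genes that bring fatty acids into the cell or bind them there were mostly lower, with a median log2 difference of -0.48 in 8 genes and 5 of the 8 apart on the lower side, against 24.9% of all genes. FABP5, a fatty acid carrier of the cytosol, was at 6479 and 4317 on shSOX11 arrays against 7309 and 7835 on shControl arrays (log2 difference -0.52, SE 0.19). The transporter SLC27A1 was at 16.8 and 35.1 on shSOX11 arrays against 40.7 and 54.6 on shControl arrays, with shSOX11.1 under the threshold. MFSD2A, a carrier of lysophospholipids, and FABP3 had log2 differences of -0.64 (SE 0.37) and -0.73 (SE 0.46), and FABP3 was near the threshold on shSOX11 arrays, at 25.0 and 22.5. SLC27A1 and FABP3 are among the 5 and had only 1 shSOX11 array above the threshold. They passed the filter through the shControl arrays, where they were higher, so the count is a description only. The other FABP3 probe set did not pass the filter, and its groups overlapped at a log2 difference of -0.34. In this list 1 gene was lower (4.66% of all genes) and 0 were higher (3.06%) at an unadjusted limma p under 0.05, and 0 passed after adjustment.

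HILPDA could be set beside other genes that hypoxia induces, which lay on both sides. Of 15 such genes 6 were apart on the higher side, against 16.2% of all genes, and 0 on the lower side, with a median log2 difference of 0.35. The log2 difference was under 0 for 5 of the 15, with overlapping groups, namely the glucose transporter SLC2A1 (-0.36), LDHA (-0.19), VEGFA (-0.12), NDRG1 (-0.10) and PFKFB3 (-0.05). ADM, which encodes the vasodilator adrenomedullin, was at 757 and 667 on shSOX11 arrays against 460 and 487 on shControl arrays (log2 difference 0.59, SE 0.17). BNIP3L, a mitophagy receptor, was at 721 and 602 against 470 and 473, and its second probe set went the same way at 0.89. ANKRD37 had signals of 1743 on shSOX11.1 and 480 on shSOX11.3, while the shControl arrays had 405 and 354, and its log2 difference of 1.27 became 2.20 without shSOX11.3 and 0.34 without shSOX11.1. P4HA1, a collagen prolyl hydroxylase subunit, was at 328 and 202 against 175 and 139. P4HA1, PDK1 and BNIP3 were also farther from control on shSOX11.1 than on shSOX11.3, with log2 differences from the control mean of 1.07 and 0.38 for P4HA1, 0.88 and 0.16 for PDK1 and 1.00 and 0.10 for BNIP3. At an unadjusted limma p under 0.05 there were 4 of 15 higher (3.06% of all genes) and 0 lower (4.66%), and 0 passed after adjustment. The difference between HILPDA and this list was not tested.

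**Figure D5:**
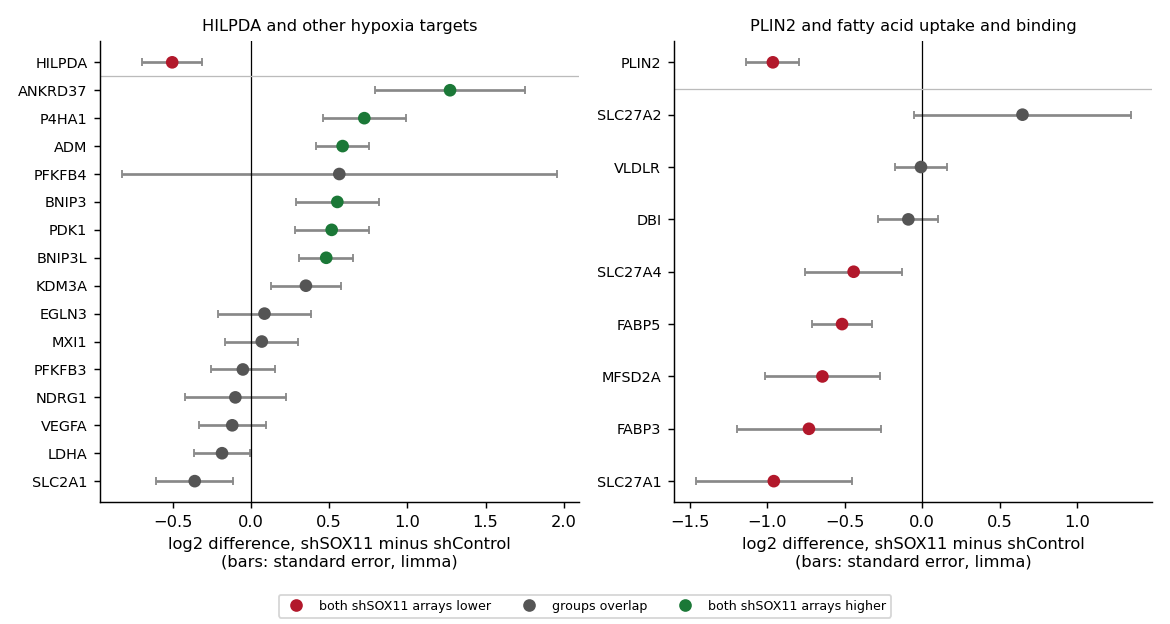
Log2 difference, shSOX11 minus shControl, with limma standard errors, for HILPDA above 15 other hypoxia targets (left) and PLIN2 above 8 genes of fatty acid uptake and binding (right), coloured by whether the arrays of the groups overlap. HILPDA at -0.50 lies below all 15 other hypoxia targets, of which ANKRD37 is the highest at 1.27, and PLIN2 at -0.96 lies beside SLC27A1 at the low end of its panel.

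Other enzymes of lipid storage and breakdown lay on both sides. Of 12 triglyceride synthesis genes 2 were apart on the lower side (24.9% of all genes) and 2 on the higher side (16.2%). LPIN2, a phosphatidate phosphatase, was lower at its brighter probe set (126 and 160 on shSOX11 arrays against 183 and 322 on shControl arrays) but higher at the other (85.3 and 95.9 against 51.3 and 65.6). ACSL4, which activates long fatty acids, was at 316 and 426 against 249 and 285 at its brightest. Of 11 lipolysis and lipophagy genes 3 were apart on the higher side, against 16.2% of all genes, and 2 on the lower side, against 24.9%. LIPA, the lysosomal acid lipase, was at 505 and 516 on shSOX11 arrays against 387 and 371 on shControl arrays (log2 difference 0.43, SE 0.17), and ABHD4 was at 117 and 136 against 94.7 and 75.2. The other ABHD4 probe set, under the threshold on all 4 arrays, went the other way, at 1.97 and 8.96 against 22.8 and 14.2. DDHD2, a triglyceride hydrolase, was at 220 and 171 against 252 and 270.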

How the data were processed

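RNA of 4 Z138 samples was labelled with biotin and hybridised to 1 array each, per the labels. Signal intensities were deposited as linear MAS5 values, 1 per probe set. They came from Affymetrix Expression Console with MAS5, per the submitters' processing notes. No program version or scaling target was given in the sources used here. After trimming, the mean signal (2% taken off each end) was 150.0 on every array, so signals were taken to log2 with no pseudocount and no further normalization. MAS5 subtracts mismatch signals, which makes dim probe sets noisy. Detection calls were not used here, and precision is limited by the small number of arrays.

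Of 54675 probe sets, 62 were array controls, and 41091 had 1 gene symbol, 1801 several and 11721 none in the platform annotation. Names were checked through Entrez identifiers against the RefSeq gene table of GRCh38.p14 (41037 matched, 0 symbols updated). Probe sets above 24.83 on at least 2 arrays were kept (28202). Differences (shSOX11 minus shControl) were fitted with limma 3.58.1 in R 4.3.3 (lmFit, eBayes with intensity trend, 2 residual degrees of freedom, 8.67 after moderation), with two-sided p-values adjusted by Benjamini-Hochberg over the kept probe sets at 0.05. The fit was tested on simulated data. Members are all named with all probe sets. Each wider list contributed up to 4 genes of smallest p, and genes most like PLIN2 were the 5 nearest. Outside this rule PLIN5 was named, and the hypoxia targets PDK1, BNIP3, SLC2A1, LDHA, VEGFA, NDRG1 and PFKFB3. The members, lists and tests were chosen with earlier results of these data known. The 14 other settings covered normalization, pseudocount, filters, limma options, gene summaries, probe set kind and leaving out each array.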

Additional observations from a re-analysis of the deposited data

How the results depend on the processing

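With all 4 arrays, 10 other settings left the counts past limma's adjusted p of 0.05 at 0 for the family and at 0 for the wider lists. Family probe sets with both shSOX11 arrays below both shControl arrays stayed at 7 wherever probe sets were counted. With 1 probe set or the mean per gene, 5 of 9 genes had this order. No brightest probe set of the 9 measured genes changed sign where it was fitted (DGAT1 gave no value with the filter at the 65th percentile). The log2 difference of PLIN2 was -0.88 with median centring, -0.89 with a pseudocount of 32 and -0.54 as the mean of its probe sets, where the dim probe set enters. Median centring moved the median of all probe sets to 0.05, against -0.03 as reported, and raised the family probe sets with both shSOX11 arrays above both shControl arrays to 4, against 1 as reported and 2 with quantile normalization. The single probe set past the adjusted p was CD24 216379_x_at. The count past it was 0 with median centring, without a filter, with the filter at the 65th percentile and without the intensity trend. It was also 0 with 1 probe set or the mean per gene, and the cause in these settings was not tested. Without probe sets ending in _x_at the count was 0 too, but that setting removes the CD24 probe set before the fit. At an unadjusted p, 2329 probe sets passed as reported, 3726 without a filter, 1001 with the brightest probe set per gene and 994 with the mean per gene, where fewer or more features were fitted. Family probe sets lower at an unadjusted p under 0.05 numbered 5 as reported and 3 with median centring and without the trend. With the mean per gene, 3 genes were lower.

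Where 1 array was left out, its partner was taken to vary as much as the arrays of the other group. The count of all probe sets past the adjusted p then ranged from 0 to 1585, with 1585 without shSOX11.1, 200 without shSOX11.3 and 0 without either shControl array. Family probe sets past it ranged from 0 to 2 (PLIN2 and PNPLA2 without shSOX11.1, PLIN2 without shSOX11.3), and list genes from 0 to 5. With 1 shSOX11 array the spread comes from the shControl arrays alone. The median absolute log2 difference between arrays of a group was 0.329 in shSOX11 and 0.213 in shControl over all kept probe sets, but 0.139 in shSOX11 and 0.245 in shControl over the family, and such calls support nothing here. Family probe sets with shSOX11 below shControl ranged from 7 to 11, the highest without shControl.2. The log2 difference of PLIN2 lay between -1.02 and -0.91. Signs changed for ABHD5 (-0.05 without shControl.2), DGAT1 (-0.14 without shControl.1) and DGAT2 (0.26 without shControl.2). No paired analysis was possible because the labels give no pairing. The numbers in the sample titles, of which the groups share only number 1, are not read as pairs.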

Other observations

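Other droplet-associated genes and regulators lay on both sides at their brightest kept probe set, with 0 past limma's adjusted p of 0.05. Of 15 other droplet proteins 5 had both shSOX11 arrays above both shControl arrays (16.2% of all genes) and 3 below (24.9%), with a median log2 difference of 0.12, and at an unadjusted p under 0.05 there were 1 higher (3.06% of all genes) and 0 lower (4.66%). MOSPD2, a tether between the endoplasmic reticulum and droplets, was at 156 and 242 on shSOX11 arrays against 128 and 105 on shControl arrays. At its other probe set the groups overlapped, with a log2 difference of 0.26 (SE 0.27). TMT1A, a methyltransferase also known as METTL7A that is found on droplets, was at 2035 and 1935 against 1488 and 1676. Its dimmer kept probe sets disagreed, with log2 differences of 0.69 at 211424_x_at, 0.28 at 209703_x_at and -0.64 at 244376_at. Groups overlapped at the last 2 of these. HSD17B11, a dehydrogenase of droplets, was at 316 and 360 against 270 and 249, and AUP1, a droplet and endoplasmic reticulum protein, at 813 and 760 against 950 and 914. The adipocyte perilipins PLIN1 and PLIN4 were under the threshold on all 4 arrays. PLIN5, the perilipin of oxidative tissues, passed the filter at 41.5 and 75.1 on shSOX11 arrays against 45.1 and 28.7 on shControl arrays, with overlapping groups and a log2 difference of 0.63 (SE 0.43).

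Of 12 PPAR factors and targets, a group that includes the receptors that induce PLIN2 in other cells, 2 were apart on the lower side (24.9% of all genes) and 1 on the higher side (16.2%), with a median of -0.01. At an unadjusted p under 0.05 there was 1 PPAR gene lower (4.66% of all genes) and 1 higher (3.06%). RXRB, a partner receptor of the PPARs, was at 151 and 148 on shSOX11 arrays against 195 and 223 on shControl arrays, and SLC25A20, the mitochondrial carnitine carrier, at 328 and 263 against 213 and 218. Of 8 genes that handle cholesterol esters 1 was apart on the lower side (24.9% of all genes) and 1 on the higher side (16.2%), with a median of 0.01 and 0 genes at an unadjusted p under 0.05. NPC2, a sterol carrier of the lysosome, was at 752 and 729 on shSOX11 arrays against 892 and 830 on shControl arrays.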
